A study of Mus musculus with 24 samples.

Results

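Kinesins are motor proteins that use ATP to move along microtubules. The 41 kinesin genes described here are the mouse genes whose symbol in the array annotation begins with Kif and a digit, together with Kifc2, Kifc3 and Kifap3, out of 19938 genes measured. Kifc1, a spindle motor gene that the same rule covers, shares its only probe set with the near copy Kifc5b, and no value is given for it. The study asked how RNA levels change when spermidine is given back to polyamine-depleted NIH3T3 cells, fibroblasts of an established mouse line. Every culture first spent 96 h with difluoromethylornithine (DFMO) at 1 mM, which blocks ornithine decarboxylase, the first enzyme of polyamine synthesis. The 0 min group received no spermidine, and the other groups were harvested 30, 60 and 120 min and then 240, 360, 480 and 600 min after 10 µM spermidine with 1 mM aminoguanidine, a blocker of serum amine oxidases. Each of the 8 groups held 3 biological replicates, 24 Affymetrix MoGene 1.0 ST arrays in all, and no label tells if aminoguanidine was also given to the 0 min cells. No array is labelled as kept in DFMO alone for the same times, so time in culture and spermidine cannot be told apart, nor can more cells expressing a gene and more of its RNA per cell.

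The family divides by work. Mitotic kinesins build and focus the spindle, move and align chromosomes, shorten microtubules at kinetochores or take part in the final cut between daughter cells, and in cycling cells the RNAs of many of them are scarce in G1 and rise through S phase and G2. Transport kinesins carry vesicles, mitochondria, endosomes and ciliary cargo in resting and dividing cells alike. By these roles 12 of the measured genes were grouped as mitotic and 16 as transport, with Kifap3, the cargo-binding subunit of a transport motor, among the latter. The other 13 act mainly in cilia, signalling or microtubule growth, or are less studied, and include Kif4-ps, a transcribed pseudogene of Kif4. They also include Kif2a, which is used in spindles as well as in growing axons, so its place outside the mitotic group is a choice.

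Values are the deposited signals on a log2 scale, on which a difference of 1 is a 2-fold change. They give no detection call, and the array medians lay between 4.40 and 4.45. In 18 of the 41 genes the mean over the 24 arrays was under 5, close to those medians (2 mitotic, 6 transport and 10 other genes). Kif1a, Kif5a, Kif5c, Kif17 and Kif21b, best known from neurons, were among these 18. The neuronal markers Snap25, Syp, Rbfox3, Map2 and Nefl had medians between 3.62 and 4.03, and macrophage and epithelial markers had medians of at most 4.62. All 8 fibroblast markers, from Thy1 (6.07) to Vim (12.71), had higher medians. For every gene the means of the 3 replicate numbers over the 8 times were equal to within 8.75e-05, so an effect of replicate number had been taken out before deposit. The fit reported here does not count that step, and counts from a fit with a replicate block, which does, are given beside it. Replicate 3 of 120 min and replicate 3 of 240 min stood apart from their labelled times. On the first principal component over all genes they lay at 2.61 and -13.23, against -12.18 and -12.23 for the other 120 min arrays and 2.07 and 1.49 for the other 240 min arrays. Both were kept under their labels. Arrays are numbered by their replicate.

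At 600 min against 0 min, 13 kinesin genes were higher and 7 were lower, 20 of 41, where 26.9% of all genes were called in either direction (limma, adjusted p under 0.05). Of the 13 rises 8 were of mitotic genes, and of the 7 falls 5 were of transport genes. Of the 12 mitotic genes 8 rose and 0 fell, with a median log2 change of 0.40 against 0.01 over all genes. Of all genes 11.2% were called higher. A mean of at least 5 was found in 10 of these 12 genes, and no share for genes of that level was taken at 600 min. Of the 16 transport genes 3 rose and 5 fell, with a median of 0.03, where 15.7% of all genes were called lower. Of these 16 genes 6 had a mean under 5, among them Kif3c and Kif5c, which rose. All 5 that fell had a mean of at least 5. Of the 13 others 2 rose and 2 fell (median 0.04). With the replicate block 10 kinesin genes rose and 7 fell, among them 7 mitotic genes that rose and 5 transport genes that fell. The 3 arrays of 600 min lay wholly above those of 0 min in 8 mitotic, 4 transport and 4 other genes, and wholly below them in 0, 6 and 2, where 17.5% and 19.9% of all genes did so. All changes were below 2-fold, from -0.66 for Kif16b to 0.67 for Kif20b.

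**Figure D1:**
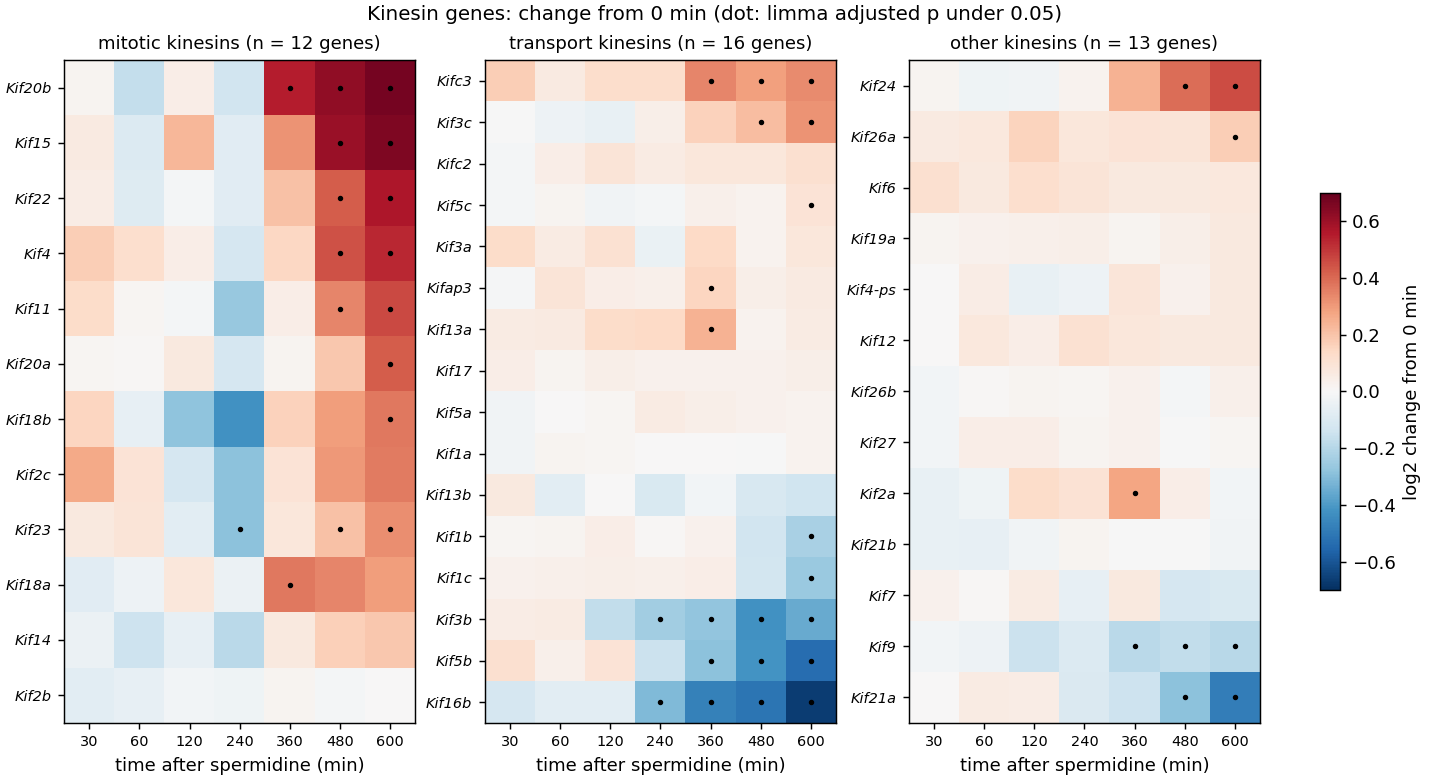
Log2 change from 0 min (colour) of every measured kinesin gene (rows) at 7 times after spermidine (columns, min), by role group, each from 3 arrays against the 3 at 0 min. Dots mark limma adjusted p under 0.05. The mitotic genes turn red from 360 to 600 min, with 8 dots at 600 min, while Kif16b, Kif5b and Kif3b lead the falls among transport genes.

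Over the whole time course 23 of the 41 genes differed between times (limma F-test), 11 of 12 mitotic, 8 of 16 transport and 4 of 13 others, where 30.9% of all genes were called. The share called depends on signal. Among genes with a mean of at least 5 it was 61.6% over all genes, against 19 of 23 kinesin genes, and among those with a lower mean 8.4%, against 4 of 18. With the replicate block 21 kinesin genes were called, and the calls lost were those of Kif2c (adjusted p = 0.0814) and Kif13a (0.0546). The 15 genes with no call at any time or over all times differed from 0 min by -0.14 to 0.14. They were Kif1a, Kif3a, Kif5a, Kif13b, Kif17 and Kifc2 of the transport group, Kif2b of the mitotic group, and Kif4-ps, Kif6, Kif7, Kif12, Kif19a, Kif21b, Kif26b and Kif27, and 12 of them had a mean under 5.

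Among the mitotic genes the largest rise was that of Kif20b, whose product acts at the midzone between separating chromosomes and in cytokinesis. Its 3 arrays read 7.04, 6.93 and 6.90 at 0 min, then 7.69, 7.51 and 7.68 at 600 min. With Kif18a it was the earliest of the mitotic genes to be called higher, reading 7.25, 7.55 and 7.72 at 360 min. All 9 arrays from 360 min on lay above the 3 arrays at 0 min. The change was 0.55 ± 0.12 at 360 min (SE, n = 3 per time, limma adjusted p = 0.00254), 0.62 at 480 min and 0.67 ± 0.12 at 600 min (limma adjusted p = 2.47e-04), a 1.59-fold rise. Replicate 3 of 120 min read 7.30, above both other arrays of that time (6.85 and 6.87), and replicate 3 of 240 min read 6.58, below both others (6.86 and 7.02).

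Kif15 and Kif11 encode the motors that push spindle poles apart, Kif11 being the main one and Kif15 able to stand in for it. Kif15 read 5.39, 5.34 and 5.31 at 0 min, 5.56, 5.61 and 5.82 at 360 min, 6.06, 5.77 and 6.03 at 480 min, then 6.08, 5.94 and 5.99 at 600 min. The groups at 0 and 600 min did not overlap, and the change was 0.66 ± 0.12 (limma adjusted p = 3.06e-04). Its replicate 3 at 120 min, at 5.89, was far above the other 120 min arrays (5.39 and 5.48). Kif11 read 7.48, 7.46 and 7.33 at 0 min, then 7.08, 7.16 and 7.23 at 240 min, below every 0 min array, although that difference of -0.27 did not pass the test. At 600 min it read 8.00, 7.79 and 7.86, a rise of 0.46 ± 0.09 from 0 min (limma adjusted p = 6.23e-04) and of 0.41 ± 0.09 from 360 min (0.00945). The latter call ended without array 1 (adjusted p = 0.0650) or array 2 (0.0516) of 360 min.

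Kif22 and Kif4 are chromokinesins, motors that ride on chromosome arms. Kif22 read 5.28, 5.28 and 5.21 at 0 min, 5.48, 5.43 and 5.47 at 360 min, 5.60, 5.56 and 5.89 at 480 min, then 5.86, 5.89 and 5.72 at 600 min. Every array from 360 min on was above the 0 min arrays, and the change was 0.42 ± 0.09 at 480 min (limma adjusted p = 0.00143) and 0.56 ± 0.09 at 600 min (7.44e-05). Kif4 rose by 0.44 at 480 min and by 0.53 ± 0.12 at 600 min (limma adjusted p = 0.00214), with 5.93, 5.73 and 5.57 at 0 min, then 6.43, 6.10 and 6.29 at 600 min. Its call at 480 min ended without array 3 of 0 min (adjusted p = 0.0643). The pseudogene Kif4-ps, whose signal may not be separate from that of Kif4, read 4.25 on average and differed by 0.07 at 600 min without passing the test.

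The cytokinesis genes Kif23, Kif20a and Kif14 had smaller changes at 600 min than Kif20b. Kif23, a subunit of the centralspindlin complex that organises the midzone, was the 1 kinesin gene with called changes from 0 min in both directions. Its arrays read 6.31, 6.14 and 6.20 at 0 min, 6.04, 5.92 and 5.83 at 240 min, then 6.60, 6.43 and 6.60 at 600 min. The groups at 240 min and at 600 min each lay wholly beyond the 0 min group, on opposite sides. The fall at 240 min was -0.28 ± 0.07 (limma adjusted p = 0.0354, 0.0703 with the replicate block) and the rises were 0.21 at 480 min (0.0422, 0.0653 with the block) and 0.32 ± 0.07 at 600 min (0.00173). The call at 240 min ended without array 1 (adjusted p = 0.174) or 3 (0.0770) of 0 min or array 2 (0.121) or 3 (0.0891) of 240 min. That at 480 min ended without array 2 (0.177) or 3 (0.104) of 0 min or array 2 (0.0634) or 3 (0.236) of 480 min. Kif20a, which relocates the chromosomal passenger complex to the midzone, rose only at 600 min (0.43 ± 0.09, limma adjusted p = 9.29e-04), with 7.17, 7.00 and 6.88 at 0 min, 6.86, 7.09 and 7.17 at 360 min, then 7.53, 7.37 and 7.43 at 600 min. Its rise of 0.40 between 360 and 600 min (adjusted p = 0.00841) was lost without array 1 of 360 min (0.0600). Kif14, another midbody motor, had a change of 0.19 at 600 min (95% interval 0.00 to 0.38, adjusted p = 0.138).

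Kif18a and Kif18b, which limit microtubule length at plus ends, and Kif2c, a microtubule depolymerase, gave less steady calls. Kif18b read 6.54, 6.13 and 6.04 at 0 min, then 6.75, 6.47 and 6.60 at 600 min, so the groups overlapped. Its rise of 0.37 ± 0.13 (limma adjusted p = 0.0378) was not called with the replicate block (0.0570) or without array 2 (0.139) or 3 (0.194) of 0 min or array 1 (0.146) or 3 (0.0791) of 600 min. Kif18a rose by 0.37 ± 0.12 at 360 min alone (limma adjusted p = 0.0407), a call lost with the block (0.0632) and without array 1 (0.0623) or 3 (0.197) of 0 min or array 1 (0.173) or 2 (0.0736) of 360 min. At 600 min its difference of 0.29 was not called (0.0906), but it was without array 3 of both 120 and 240 min (0.0165) and with quantile normalization (0.0352). Kif2c read 7.27, 6.97 and 6.58 at 0 min, then 7.30, 7.35 and 7.27 at 600 min. Its difference of 0.36 had a 95% interval of 0.01 to 0.72 and was not called (adjusted p = 0.127), but it was 0.53 without array 1 of 0 min (0.0306). Kif2b, a relative of Kif2c known mainly from testis, stayed near the array median, at 3.97 on average.

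**Figure D2:**
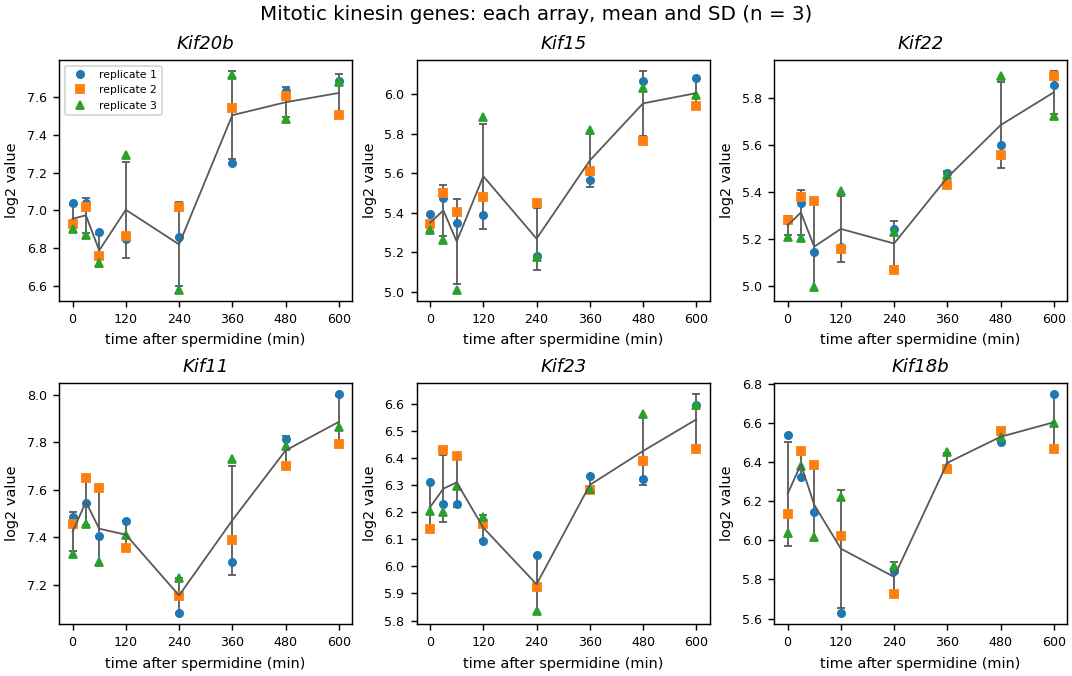
Log2 value (y axis) against time after spermidine in min (x axis) for 6 mitotic kinesin genes. Each symbol is 1 array, coded by replicate number, and the line with bars is the mean ± SD (n = 3). Kif20b was called higher from 360 min and Kif15, Kif22 and Kif11 from 480 min, the arrays of Kif15 and Kif22 lie above those of 0 min from 360 min on, and Kif23 and Kif11 are lowest at 240 min.

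The start regions of mitotic kinesin genes are shown because these genes made up 8 of the 13 rises at 600 min. Many promoters active in G2 and mitosis hold a cell cycle genes homology region (CHR) close to the start site, often beside CCAAT boxes. The CHR has the core letters TTTGAA, and the MuvB complex binds it, as part of the DREAM repressor or together with B-MYB or FOXM1. The RefSeq promoter table (build GRCm38.p6) held 300-base windows, from 250 bases before to 50 bases after the annotated start, for 32 of the 41 genes. Kif20a, a mitotic gene that rose, and Kif5b, a transport gene that fell, were among those without a window. Below are 100 bases, 70 before the start and 30 from it on, for the 7 mitotic genes with a TTTGAA match within 25 bases of the start and for Kif3b and Kif16b, transport genes that fell. Capitals mark TTTGAA and CCAAT on either strand (TTCAAA and ATTGG on the reverse), and in Kif20b they cover a pair of adjoining TTTGAA matches.
Kif20b (chr19:34922288-34922387, + strand): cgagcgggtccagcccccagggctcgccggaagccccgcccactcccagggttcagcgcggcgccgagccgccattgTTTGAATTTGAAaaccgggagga
Kif15 (chr9:122951011-122951110, + strand): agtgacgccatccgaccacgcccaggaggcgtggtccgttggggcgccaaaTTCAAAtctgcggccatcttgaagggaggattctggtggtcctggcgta
Kif22 (chr7:127042391-127042490, - strand): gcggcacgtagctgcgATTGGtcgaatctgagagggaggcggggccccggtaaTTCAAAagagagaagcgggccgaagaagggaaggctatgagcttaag
Kif11 (chr19:37376312-37376411, + strand): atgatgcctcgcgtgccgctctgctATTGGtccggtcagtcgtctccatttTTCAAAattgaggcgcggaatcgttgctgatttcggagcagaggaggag
Kif23 (chr9:61946770-61946869, - strand): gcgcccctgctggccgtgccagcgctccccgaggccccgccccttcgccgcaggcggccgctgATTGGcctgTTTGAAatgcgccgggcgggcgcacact
Kif18b (chr11:102925095-102925194, - strand): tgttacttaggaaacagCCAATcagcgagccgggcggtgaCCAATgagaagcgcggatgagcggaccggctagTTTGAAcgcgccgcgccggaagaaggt
Kif4 (chrX:100625995-100626094, + strand): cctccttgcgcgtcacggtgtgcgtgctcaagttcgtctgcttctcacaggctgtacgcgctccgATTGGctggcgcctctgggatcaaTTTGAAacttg
Kif3b (chr2:153291346-153291445, + strand): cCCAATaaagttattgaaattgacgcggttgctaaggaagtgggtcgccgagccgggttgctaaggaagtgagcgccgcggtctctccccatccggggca
Kif16b (chr2:142901435-142901534, - strand): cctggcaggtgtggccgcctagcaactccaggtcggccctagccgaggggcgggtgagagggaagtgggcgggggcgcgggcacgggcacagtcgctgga
On either strand, TTTGAA lay in the windows of 9 of 11 mitotic genes, in 1 of 13 windows from 11 transport genes and in 2 of 12 windows from 10 others, against 17.9% of all 32851 windows. A match that began within 25 bases of the annotated start was found in 7 of the 11 mitotic windows, 0 of 13 transport windows and 1 of 12 others, against 2.7% of all windows. In Kif11 and Kif15 the match began 19 bases before the start and in Kif22 17 bases before it. In Kif23, Kif18b and Kif20b it began at base 3, base 4 and bases 8 and 14 of the transcript, and in Kif4 at base 20. In Kif26b, the 1 gene of the others, it began 9 bases before the start. Kif26b had a mean of 3.81 and no call. Kif14 and Kif2c had matches 228 and 103 bases before the window's start site, and the windows of Kif18a and Kif2b had none. The start sites of 7 of the 36 windows lie more than 1000 bases inside the RefSeq gene span, among them those of Kif14 (1547 bases) and Kif2c (3852 bases), so these are not the genes' outermost starts. The others are those of Kif3a, Kifap3, Kif26a, Kif27 and the Kif1a window with the match. In the 7 mitotic genes whose bases are shown the start site lies 0 to 47 bases inside the gene span. CCAAT lay in 7 of the 11 mitotic windows, 4 of the 11 transport genes and 4 of the 10 others, against 37.4% of all windows. The CHR variant TTCGAA lay in 1 kinesin window, that of Kif24, 26 bases before the start, beside 4 CCAAT matches, against 1.56% of all windows. G and C made up a median of 59.7% of the mitotic windows, 67.0% of the transport windows and 52.7% of all windows. A match is a description of letters, and binding was not measured.

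**Figure D3:**
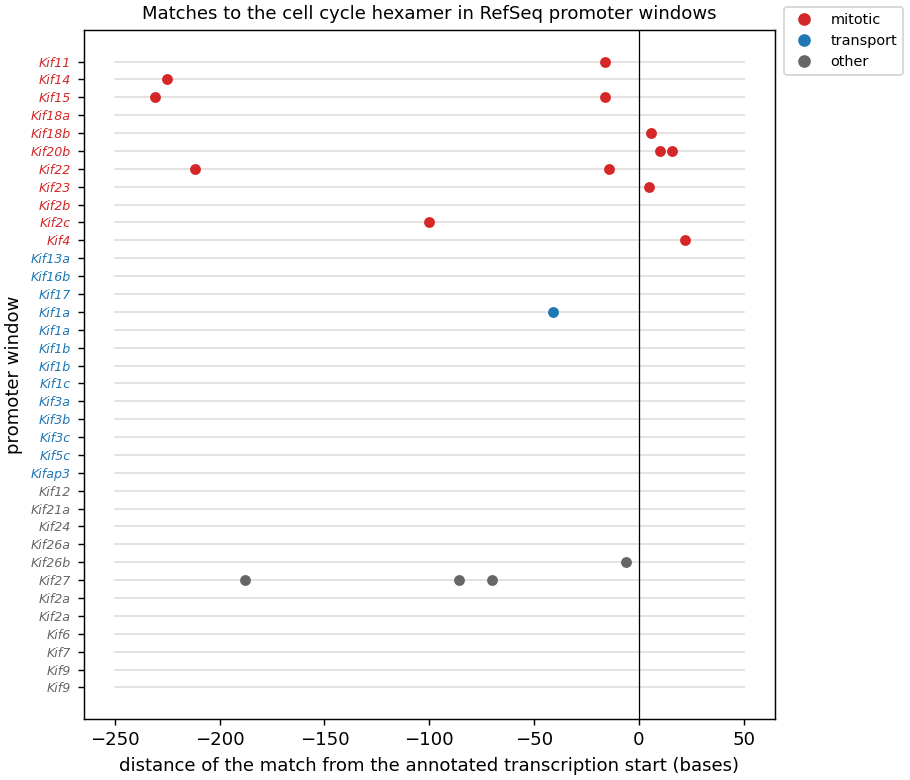
Position of each TTTGAA match on either strand (point, centre of the match) relative to the annotated transcription start (x axis, bases) in the RefSeq promoter windows of 32 kinesin genes (rows; genes with 2 windows have 2 rows). Mitotic genes (red) have points in 9 of 11 windows, most of them near 0, and transport genes (blue) in 1 of 13.

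Kif24, outside the mitotic group, also rose late. It encodes a microtubule depolymerase of the centriole that restrains the formation of cilia. It read 4.21, 4.07 and 4.38 at 0 min, then 4.78, 4.68 and 4.58 at 600 min, with no overlap, and rose by 0.39 ± 0.09 at 480 min (limma adjusted p = 0.00272) and 0.46 ± 0.09 at 600 min (5.51e-04).

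Among the transport genes the deepest falls were those of Kif16b and Kif5b. Kif5b, the ubiquitous heavy chain of conventional kinesin, had the smallest F-test p of the family (adjusted p = 2.84e-09, limma). Its arrays read 9.52, 9.56 and 9.51 at 0 min, 9.37, 9.38 and 9.39 at 240 min, 9.20, 9.30 and 9.22 at 360 min, 9.09, 9.07 and 9.17 at 480 min, then 8.95, 8.97 and 9.07 at 600 min. From 240 min on each group lay wholly below the one before it, narrowly so at 600 min. The change was -0.29 ± 0.05 at 360 min (limma adjusted p = 1.54e-04), -0.42 at 480 min and -0.53 ± 0.05 at 600 min (4.52e-08), when it was 1.45-fold lower. The neuronal heavy chain genes Kif5a and Kif5c stayed below the array medians, and their probe sets list a shared accession. Kif5c was called at 600 min with a difference of 0.10 ± 0.03 (adjusted p = 0.0405, 0.0703 with the replicate block), which ended without array 1 (0.117) or 2 (0.150) of 0 min or array 2 (0.183) or 3 (0.0696) of 600 min.

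Kif16b, which moves early endosomes and the receptors in them, fell furthest. It read 6.78, 6.72 and 6.75 at 0 min, 6.45, 6.32 and 6.55 at 240 min, 6.23, 6.29 and 6.31 at 360 min, then 6.00, 6.09 and 6.17 at 600 min. No array from 240 min on reached the 0 min values. The change was -0.31 ± 0.07 at 240 min (limma adjusted p = 0.0189) and -0.66 ± 0.07 at 600 min (5.25e-07), when it was 1.58-fold lower. The call at 240 min ended without array 1 (adjusted p = 0.0885) or 3 (0.0509) of 0 min or array 1 (0.0725) or 2 (0.122) of 240 min, and likewise with quantile normalization (0.123) or in a fit to those arrays only (0.0878). No alternative ended the later calls. Other vesicle motors of its class took other courses. Kif1c, which carries vesicles in fibroblasts, and Kif1b, which carries mitochondria and synaptic vesicle precursors, lay within 0.05 of 0 min until 360 min and then fell, by 0.26 ± 0.05 (limma adjusted p = 9.83e-04) and by 0.23 ± 0.05 (0.00229) at 600 min. Between 360 and 600 min they fell by 0.31 (0.00171) and 0.26 (0.00480), and the Kif1c call over that interval was lost in a fit to those arrays only. The second Kif1c probe set differed by -0.40 at 600 min. Kif13a, a motor for recycling endosomes, rose at 360 min alone (0.24 ± 0.05, limma adjusted p = 0.00299), with 5.98, 6.04 and 6.14 at 0 min, 6.28, 6.33 and 6.27 at 360 min, then 6.23, 6.07 and 6.03 at 600 min. Kif13b had a difference of -0.14 at 600 min that was not called.

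The subunits of heterotrimeric kinesin-2, the motor of intraflagellar transport in cilia, differed in their calls. This motor pairs KIF3A with KIF3B, or in some cells with KIF3C, and binds cargo through KAP3, the product of Kifap3. Kif3b fell from 7.53, 7.57 and 7.57 at 0 min to 7.26, 7.28 and 7.39 at 240 min, 7.09, 7.21 and 7.08 at 480 min, then 7.27, 7.14 and 7.20 at 600 min. Every array from 120 min on was below those at 0 min. Its change was -0.24 ± 0.05 at 240 min (limma adjusted p = 0.00563), -0.42 ± 0.05 at 480 min (1.10e-06) and -0.35 at 600 min. The call at 240 min was lost with quantile normalization (0.0616) and in a fit to those arrays only (0.0803). Kif3c, at a low level, rose from 4.56, 4.45 and 4.58 to 5.04, 4.80 and 4.69 at 600 min (0.31 ± 0.07, limma adjusted p = 0.00208). Its call at 480 min (0.22, adjusted p = 0.0304) ended without array 1 (0.0520) or 2 (0.138) of 0 min or array 2 (0.0777) or 3 (0.123) of 480 min. Kif3a, the shared partner, differed by 0.08 at 600 min (95% interval -0.05 to 0.21) and was not called. Kifap3 rose by 0.15 ± 0.05 at 360 min (limma adjusted p = 0.0281), a call lost without array 1 (0.0594) or 2 (0.121) of 0 min or array 3 of 360 min (0.199), and in a fit to those arrays only (0.119).

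Of the minus-end directed motors outside mitosis, Kifc3, which acts at cell junctions, the Golgi and apical vesicles, was higher than at 0 min from 360 min on. It read 5.16, 5.12 and 5.03 at 0 min, 5.46, 5.46 and 5.42 at 360 min, then 5.53, 5.44 and 5.32 at 600 min. The change was 0.34 ± 0.07 at 360 min (limma adjusted p = 0.00109) and 0.33 ± 0.07 at 600 min (9.14e-04), with no overlap with 0 min. Kifc2, a mainly neuronal gene, had a mean of 4.26 and no call.

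**Figure D4:**
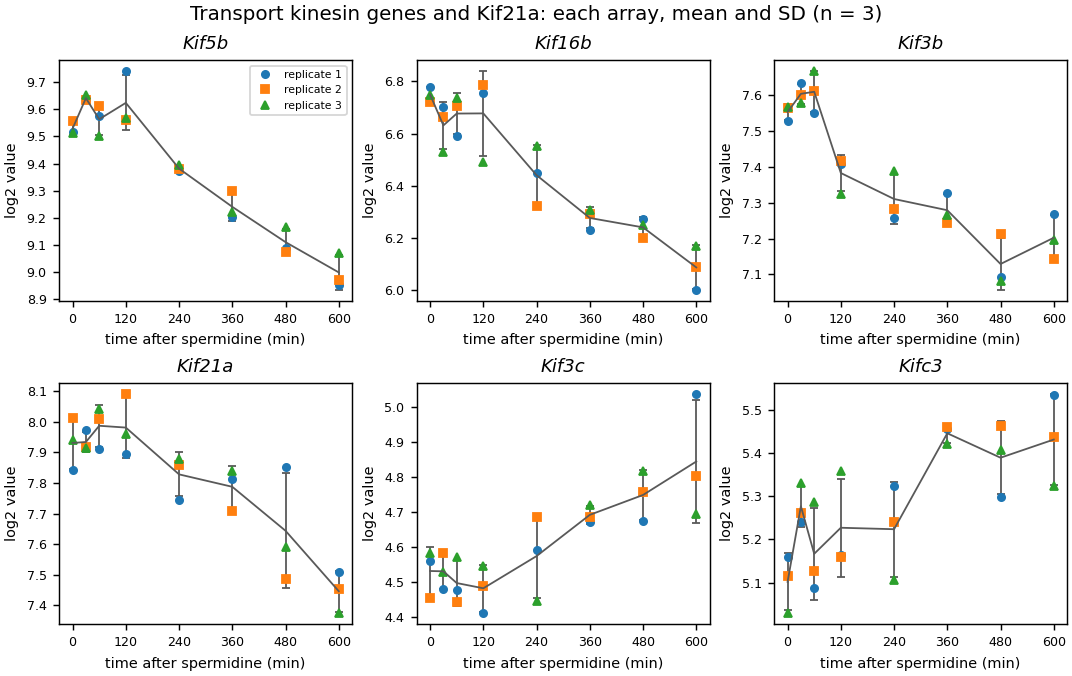
Log2 value (y axis) against time after spermidine in min (x axis) for 5 transport kinesin genes and Kif21a. Each symbol is 1 array, coded by replicate number, and the line with bars is the mean ± SD (n = 3). Kif5b, Kif16b, Kif3b and Kif21a descend to 600 min or 480 min, while Kif3c and Kifc3 are higher in the late groups than at 0 min.

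In the group with other roles, Kif21a, a motor that restrains microtubule growth at the cell cortex, also fell. It read 7.84, 8.01 and 7.94 at 0 min, 7.85, 7.49 and 7.59 at 480 min, then 7.51, 7.46 and 7.38 at 600 min, a change of -0.48 ± 0.07 at 600 min (limma adjusted p = 3.98e-05). Its call at 480 min (-0.29, adjusted p = 0.00632) ended without array 2 of that time (0.0568). Kif2a, a depolymerase used in spindles and in growing axons, rose at 360 min to 8.39, 8.24 and 8.26 from 7.91, 8.07 and 8.08 (0.28 ± 0.06, limma adjusted p = 0.00204). By 600 min it was back at 8.10, 7.95 and 7.96, a fall of 0.29 ± 0.06 from 360 min (0.00476). Kif9, a motor of motile cilia, had a small fall at a low level, from 4.37, 4.33 and 4.30 at 0 min to 4.14, 4.13 and 4.13 at 600 min (-0.20 ± 0.04, limma adjusted p = 2.82e-04). Kif26a, a kinesin without motor activity that acts in cell signalling, was called at 600 min (0.17 ± 0.06, adjusted p = 0.0342). That call was lost with the replicate block (0.0548), without any 1 of the 3 arrays of 0 min (0.0610 to 0.0860) and without array 2 (0.0533) or 3 (0.246) of 600 min.

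By time, 0 of 41 kinesin genes were called at 30 or 60 min, where 0.0150% and 0.0251% of all genes were called, and 0 at 120 min (0.471%, or 0.0451% higher and 0.426% lower), in limma's fit with or without the replicate block. At an unadjusted p under 0.05 the numbers were 2 at 30 min, 0 at 60 min and 7 at 120 min, where 5.54%, 5.14% and 12.2% of all genes had such a p. At 240 min 0 rose and 3 fell, namely Kif3b, Kif16b and Kif23, against 3.06% of all genes called and 2.69% called lower (2 with the replicate block, 0 in a fit to only the arrays of those times). At that time the means of all 12 mitotic genes lay below 0 min, from -0.42 for Kif18b to -0.03. Their median was -0.13 against 0.00 over all genes, and 1 of them passed the test. These means include replicate 3 of 240 min, which stood apart from its labelled time. For Kif18a (-0.04) that array read 5.85 and the others 5.97 and 6.12, against a 0 min mean of 6.02. At 360 min 6 rose and 4 fell (19.0% of all genes, 8.47% higher and 10.5% lower), with 2 mitotic and 3 transport genes among the rises. At 480 min 9 rose and 5 fell (24.2%, 9.73% higher and 14.5% lower), with 6 mitotic rises. The first call against 0 min came at 240 or 360 min for 6 of the 10 transport genes ever called. For 6 of the 9 mitotic ones it came at 480 or 600 min. These calls include rises and falls, and they depend on each gene's SE, so they do not give the order of change. At 360 min Kifap3 was called at 0.15 ± 0.05, while Kif15 was not at 0.31 ± 0.12. All 12 mitotic genes lay above 0 min at that time. All these comparisons share the 3 arrays of 0 min.

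A comparison of the late groups (360 to 600 min, averaged) with the early ones (30 to 120 min) leaves out the 0 min arrays. By it 15 kinesin genes were higher and 7 lower, where 35.8% of all genes were called, 16.4% higher and 19.4% lower. Of the 12 mitotic genes 10 rose and 0 fell (median 0.25 against 0.01 over all genes), all but Kif2c and Kif2b, and the replicate block left 10. The rises ran from 0.18 for Kif23 and Kif20a to 0.65 ± 0.07 for Kif20b (limma adjusted p = 2.31e-07). Kif18a (0.35 ± 0.07, 4.86e-04), Kif18b (0.33 ± 0.07, 9.79e-04) and Kif14 (0.22 ± 0.05, 0.00157), unsteady or not called against 0 min, were called here and kept the call whichever array was left out. The second Kif14 probe set differed by 0.02. Of the 16 transport genes 3 rose (Kif3c, Kifc3 and Kif5c) and 5 fell (Kif5b, Kif16b, Kif3b, Kif1c and Kif1b), with a median of 0.00. Kif5b fell by 0.49 ± 0.03 (limma adjusted p = 2.33e-11). The Kif5c difference was 0.06, and its call was lost without array 3 of 120 min (0.0574), array 3 of 480 min (0.0511) or array 2 of 600 min (0.0562). Kif24 and Kif2a rose among the others, the latter by 0.09 (0.04997). That Kif2a call was lost in 15 of 27 alternatives, among them the replicate block (0.0741). Between 360 and 600 min 3 kinesin genes rose, the mitotic Kif11, Kif20a and Kif22, and 6 fell, where 5.97% of all genes were called, 2.54% higher and 3.43% lower. With the replicate block 3 rose and 5 fell. Kif13a (-0.19, 0.0463) lost its call with the block (0.0847) and without any 1 of the 3 arrays of 360 min or array 2 or 3 of 600 min (0.0874 to 0.209). The call of Kif22 (0.36, 0.0215) was lost without any 1 of the 3 arrays of 360 min or array 1 or 2 of 600 min (0.0540 to 0.0997).

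As means over each group and array, the mitotic genes lay below the transport genes at 240 min and above them from 360 min on. Relative to the 0 min mean of each gene, the mitotic mean was 0.48, 0.33 and 0.40 in the 3 arrays at 600 min, then 0.29, 0.31 and 0.38 at 480 min. The transport mean was -0.03, -0.07 and -0.09, and -0.07, -0.05 and -0.06. The mitotic minus transport difference was 0.16 ± 0.09 at 360 min (SD, n = 3), 0.39 ± 0.04 at 480 min and 0.47 ± 0.06 at 600 min. At 240 min it was -0.15 ± 0.02, with -0.14, -0.17 and -0.14 in the 3 arrays, and it was within 0.05 of 0 from 30 to 120 min. The last of the 240 min arrays is replicate 3, which stood apart from its labelled time, as did replicate 3 of 120 min, at 0.14. Each SD is of 1 time and leaves out the spread of the difference at 0 min (SD 0.12). The mitotic mean spread widely at 0 min (0.13, -0.01 and -0.12) and at 120 min, where replicate 3 was at 0.15 and the others at -0.10 and -0.08. Without that array the difference at 120 min was -0.13 in place of -0.04. The transport mean takes in 5 called falls and 3 called rises at 600 min, with changes from -0.66 to 0.33. It also takes in 6 genes with a mean under 5. These means are descriptions of members placed by role, with no test.

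**Figure D5:**
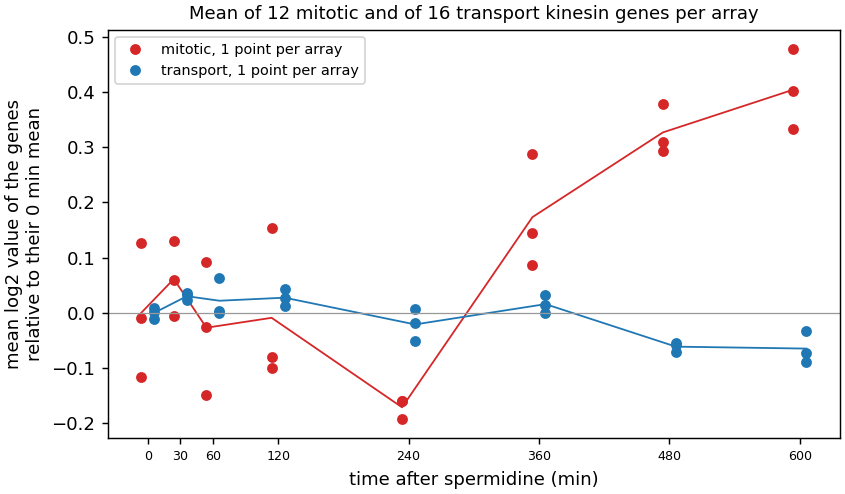
Mean log2 value of the 12 mitotic (red) and 16 transport (blue) kinesin genes relative to each gene's 0 min mean (y axis) against time after spermidine in min (x axis). Each point is 1 array, 3 per group and time, with the groups drawn slightly to either side of each time, and lines join the means. The red points lie below the blue ones at 240 min and above them at 360, 480 and 600 min.

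Genes that work with the mitotic kinesins also rose late. Of 24 measured partners (25 listed) 20 rose and 0 fell at 600 min (18 and 0 with the replicate block), with a median of 0.54. Of all genes 11.2% were called higher and 15.7% lower. These shares are not matched for level, and 22 of the 24 partners had a mean of at least 5. Those with the smallest F-test p were Aurkb (1.21 ± 0.11, limma adjusted p = 6.67e-08) and Incenp (0.78 ± 0.09), of the chromosomal passenger complex that KIF20A moves, the checkpoint kinase gene Bub1 (1.05 ± 0.10), and Mybl2, which encodes B-MYB (1.02 ± 0.11). Cenpe, the kinetochore kinesin gene that lacks a Kif symbol, was called at 600 min (0.37 ± 0.14, adjusted p = 0.0483), but not with the replicate block (0.0705) nor without any 1 of arrays 2 and 3 of 0 min and the 3 arrays of 600 min (0.0510 to 0.177). The 4 partners that were not called were Foxm1 (0.25), the passenger subunits Birc5 (0.14) and Cdca8 (0.02), and the cyclin gene Ccnb2 (-0.12), named here after their values were seen. Of 18 measured transport partners (20 listed), which include the light chains of conventional kinesin, cargo adaptors and dynein, 2 rose and 4 fell, with a median of -0.12. These 6 calls, 33.3% of the list, are near the 26.9% over all genes. That holds for 600 min only. Late against early 3 rose and 8 fell, 61.1% of the list. Of all genes 35.8% were called in that comparison, 19.4% lower. A mean of at least 5 was found in 14 of the 18, and these shares are not matched for level. At 600 min Mapk8ip1, a kinesin cargo adaptor gene, rose by 0.57 ± 0.09 (limma adjusted p = 7.63e-05) and Dync1i2, a dynein intermediate chain gene, by 0.26. Dctn2, of dynactin, fell by 0.29 ± 0.07 (0.00158) and Dync1h1, the dynein heavy chain gene, by 0.41 ± 0.08 (8.93e-04). The light chain genes Klc1 (-0.04), Klc3 (0.04) and Klc4 (-0.14), also named after their values were seen, were not called at 600 min.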

How the data were processed

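RNA from 24 samples, 3 per time, was hybridised to 24 arrays. The authors deposited 1 table of signals for 35399 probe sets. Partek and RMA are named in the submitters' processing notes, with no version. The deposited values have the range of log2 signals and were used as such, since no label states their scale. Replicate effects had been removed from them, so the residual degrees of freedom of a fit without the block are too many and its p-values too small. The precision is limited by the 3 arrays per time.

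Probe sets were named from the platform annotation. Of them 21789 carried 1 symbol, 1621 several and 11989 none, and those with several symbols were not used. For each of 19938 genes the probe set with the highest mean was kept. All 24 arrays were fitted with 1 mean per time in limma 3.58.1 (R 4.3.3), with no filter, and p-values were adjusted by Benjamini-Hochberg over all 19938 genes. Calls were made at an adjusted p below 0.05. ± is the SE of limma's difference unless named as SD. The code was tested on simulated data.

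The kinesin genes, role groups and partner lists were chosen with earlier results of these data known. All members called over all times are named, the 10 with the smallest F-test p and any with called changes of both signs are given by array, and of the partner lists Cenpe and the 4 with the smallest F-test p are named. Values by array for other members were added after their values were seen. Whether replicate numbers pair the samples across times could not be checked, since their effect had been removed. The alternatives were a replicate block, each array left out, both arrays that stood apart left out (also with the block, which was added after seeing the data), only the arrays compared, a mean of at least 5, all probe sets averaged, quantile and median scaling, a variance trend, and a threshold of 0.01.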

Additional observations from a re-analysis of the deposited data

How the results depend on the processing

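The kinesin numbers called at 360, 480 and 600 min, late against early and over all times kept within 1.5 times of those given under every alternative run. Of 78 calls of single members 59 were kept under all alternatives, 19 were lost in at least 1 and 0 reversed. At 240 min the number called was 3, and it was 1 with quantile normalization (a rise, where the 3 were falls), 1 at an adjusted p under 0.01 and 0 with only the arrays compared. The mitotic minus transport difference of -0.15 at 240 min was -0.1322 over genes with a mean of at least 5 and -0.1236 after quantile normalization. At 480 min 0.39 became 0.2975 with medians and 0.5119 over genes with a mean of at least 5, and at 600 min 0.47 became 0.3641 and 0.6300.

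With 1 array left out at a time, the number of kinesin genes called was 0 at 30 and 60 min, 0 to 1 at 120 min, 1 to 3 at 240 min, 8 to 10 at 360 min, 12 to 15 at 480 min, 17 to 19 at 600 min, 20 to 23 late against early, 5 to 8 between 360 and 600 min, and 21 to 23 over all times. Among mitotic genes it was 4 to 7 at 480 min, 7 to 9 at 600 min and 10 to 11 late against early, and among transport genes 4 to 5, 7 to 8 and 7 to 8. The mitotic minus transport difference ran from -0.0277 to 0.0897 at 30 min, -0.1199 to 0.0328 at 60 min, -0.1252 to 0.0222 at 120 min, -0.2088 to -0.0914 at 240 min, 0.0986 to 0.2161 at 360 min, 0.3289 to 0.4463 at 480 min and 0.4097 to 0.5272 at 600 min.

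The replicate block left 17 of 20 kinesin calls at 600 min, 13 of 14 at 480 min, 9 of 10 at 360 min, 2 of 3 at 240 min, 21 of 22 late against early, 8 of 9 between 360 and 600 min and 21 of 23 over all times. Deviations from the time means of samples with the same number correlated at -0.53 to 0.18 (median -0.15 over 84 pairs of samples, 4 above 0.1). The removal of replicate effects before deposit pushes these correlations below 0, so they do not show whether the numbers pair the samples. Scaling moved the median of all genes by at most 0.02, but some kinesin changes moved more with quantile normalization. At 240 min Kif23 went from -0.28 to -0.21, Kif16b from -0.31 to -0.24 and Kif3b from -0.24 to -0.18. All 3 lost their calls. At 600 min Kif18a went from 0.29 to 0.35 and gained one. Signals near the array median, those of 18 of the 41 genes, limit what can be seen of those genes, and the cause of each lost call was not tested.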
